A study of Mus musculus with 12 samples.

Results

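Chemokines and chemokine receptors were followed through the gonadal white adipose tissue of 4 groups of mice. The members were the protein-coding genes whose symbol starts with Ccl, Cxcl, Cx3cl, Xcl, Ccr, Cxcr, Cx3cr, Xcr or Ackr followed by a number. They numbered 56 of the 32238 genes of the count table, which were 35 ligands, 17 receptors and 4 atypical receptors, and 3 further genes with a matching symbol were left out because they do not code for protein. A filter on low counts passed 48 members, namely 30 ligands, 14 receptors and the 4 atypical receptors. Wild-type mice (WT) and mice with a macrophage-specific knockout of Bnip3 (MKO) were compared on a normal chow diet (NCD) and on a high-fat diet (HFD). Bnip3 codes for a mitochondrial protein that takes part in the removal of mitochondria. Feeding lasted 12 weeks and began at an age of 8 weeks in both genotypes, and RNA of whole tissue from 3 biological replicates a group was sequenced after selection of mRNA. Strain, sex and the promoter that drives the knockout are not given in the labels.

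Chemokines are small secreted proteins that bind G-protein-coupled receptors on leukocytes and other cells and direct their movement along a concentration gradient. Most ligands carry either a CC or a CXC arrangement of their conserved cysteines, and many bind more than 1 receptor. Atypical receptors bind chemokines without the usual G-protein signal and scavenge, transport or present them. In adipose tissue the pair Ccl2 and Ccr2 is known for the recruitment of monocytes during obesity, and Cxcl12 and its receptor Cxcr4 for the retention of cells in tissue.

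The sequences upstream of 4 members are shown because the results turn on these genes: Ccl6, Ccl9 and Ccr2 passed the test between genotypes on HFD, and Cxcr4 had the smallest p of all members between diets in WT. Each is the 250 bases before a RefSeq start in build GRCm38.p6, read 5′ to 3′ on the gene's strand. The Ccr2 window lies just inside the annotated gene, which begins at base 124101918. The positions are chr11:83593088-83593337 on the minus strand for Ccl6, chr11:83578637-83578886 on the minus strand for Ccl9, chr9:124101933-124102182 on the plus strand for Ccr2 and chr1:128592300-128592549 on the minus strand for Cxcr4. Capitals mark matches on either strand to AGGAAG, the core of sites for ETS factors, TATAAA, the TATA box, CCAAT, bound by NF-Y, TGANTCA, bound by AP-1, and TTGCNNAA, a form of the C/EBP site.
Ccl6: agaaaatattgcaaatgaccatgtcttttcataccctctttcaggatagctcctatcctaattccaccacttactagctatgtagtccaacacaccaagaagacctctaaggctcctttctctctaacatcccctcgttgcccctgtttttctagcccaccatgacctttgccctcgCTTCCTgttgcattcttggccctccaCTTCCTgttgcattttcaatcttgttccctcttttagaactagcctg
Ccl9: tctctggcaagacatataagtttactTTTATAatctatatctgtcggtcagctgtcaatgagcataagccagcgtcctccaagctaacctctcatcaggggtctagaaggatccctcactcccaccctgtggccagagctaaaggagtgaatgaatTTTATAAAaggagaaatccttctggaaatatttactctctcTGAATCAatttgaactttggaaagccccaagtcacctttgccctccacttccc
Ccr2: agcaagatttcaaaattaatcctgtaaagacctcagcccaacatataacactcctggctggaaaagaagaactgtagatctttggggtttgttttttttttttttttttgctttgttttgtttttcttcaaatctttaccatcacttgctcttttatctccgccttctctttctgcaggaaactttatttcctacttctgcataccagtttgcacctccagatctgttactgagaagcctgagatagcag
Cxcr4: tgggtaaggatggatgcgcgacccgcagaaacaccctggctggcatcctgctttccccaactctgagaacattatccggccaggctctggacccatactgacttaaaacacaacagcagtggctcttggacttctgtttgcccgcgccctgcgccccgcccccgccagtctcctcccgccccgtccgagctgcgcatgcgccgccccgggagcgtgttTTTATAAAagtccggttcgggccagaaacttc

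Ccl6 held 2 matches to AGGAAG, both on the opposite strand. Ccl9 held 3 matches to TATAAA and 1 to TGANTCA, and the run TTTATAAA counts as 2 matches because it reads as a TATA box on both strands. Cxcr4 held 2 matches to TATAAA in 1 such run, and the Ccr2 window held no match to the 5 motifs. Ccl6 and Ccl9 are neighbours, and the longest run their windows share is 13 bases, gccctccacttcc, with 42 bases between it and the start in Ccl6 and 1 base in Ccl9. Of 32851 windows of the same length, 29.5% hold AGGAAG, 12.4% TATAAA, 33.8% CCAAT, 6.75% TGANTCA and 9.56% TTGCNNAA. Among the 50 windows of 43 members these numbered 21, 14, 17, 6 and 7. A match is a description of letters and was not tested as a binding site.

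Library totals were 52.9 to 72.7 M counts. The 7 adipocyte markers (Adipoq, Plin1 and others) summed to 12700 to 26183 CPM, counts scaled to library size, in the 12 libraries, and 0 of them were at 0 in any library. Bnip3 itself lay at 358 to 568 CPM in WT and at 415 to 811 CPM in MKO libraries; other cells of the tissue express it too, so its level here does not check the labels. Epididymis markers summed to 6354 to 6885 CPM in the WT NCD libraries and to at most 19.96 CPM in the other 9. This neighbouring tissue therefore moves with the WT NCD group, and its part in results against that group was not tested. The library labelled MKO NCD replicate 2 stood apart: 57.3% of its genes were at 0 against 15.6% to 38.3% elsewhere, and 702 genes at 0 there had 100 or more counts in every other library. Of the members, 33 were at 0 in it against 4 to 11 in the others, and 11 of these reached 10 counts in every other library (Cxcr3, Ccr7, Cxcl1, Ccl22, Ccl5, Ccl7, Ccl19, Cxcl13, Cxcl14, Cxcl16 and Cxcr6). Because the fit pools the spread of all 12 libraries, counts of members are given with and without this library.

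By the authors' TPM, which divides by gene length and so allows levels of different genes to be compared, Ccl6 was the most abundant member at a mean of 213 TPM over the 12 libraries. It was followed by Cxcl12 at 115, Ccl9 at 87.7, Ccl11 at 80.4 and Ccl8 at 48.6 TPM. The most abundant receptors were the atypical receptor Ackr3 at 43.7 TPM and Ccr2 at 35.5 TPM, ahead of Cxcr4 at 12.4 TPM. Cxcl9 at 33.9, Ccl21a at 31.6 and Ccl2 at 23.9 TPM completed the 10 highest members. The order holds for the mean only: in WT NCD the mean TPM was 113 ± 58.0 for Ccl6 and 94.6 ± 18.5 for Cxcl12 (SD, n = 3), so these neighbours did not differ beyond their spread, whereas in WT HFD they stood at 525 ± 108 and 185 ± 5.5 TPM. The 8 members that failed the count filter (Ccl1, Ccl26, Cxcl3, Cxcl5, Cxcl17, Ccr4, Ccr8 and Cxcr2) had at most 10 counts in any library. Cxcr2 is the receptor of the neutrophil attractants Cxcl1, Cxcl2, Cxcl3 and Cxcl5.

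**Figure D1:**
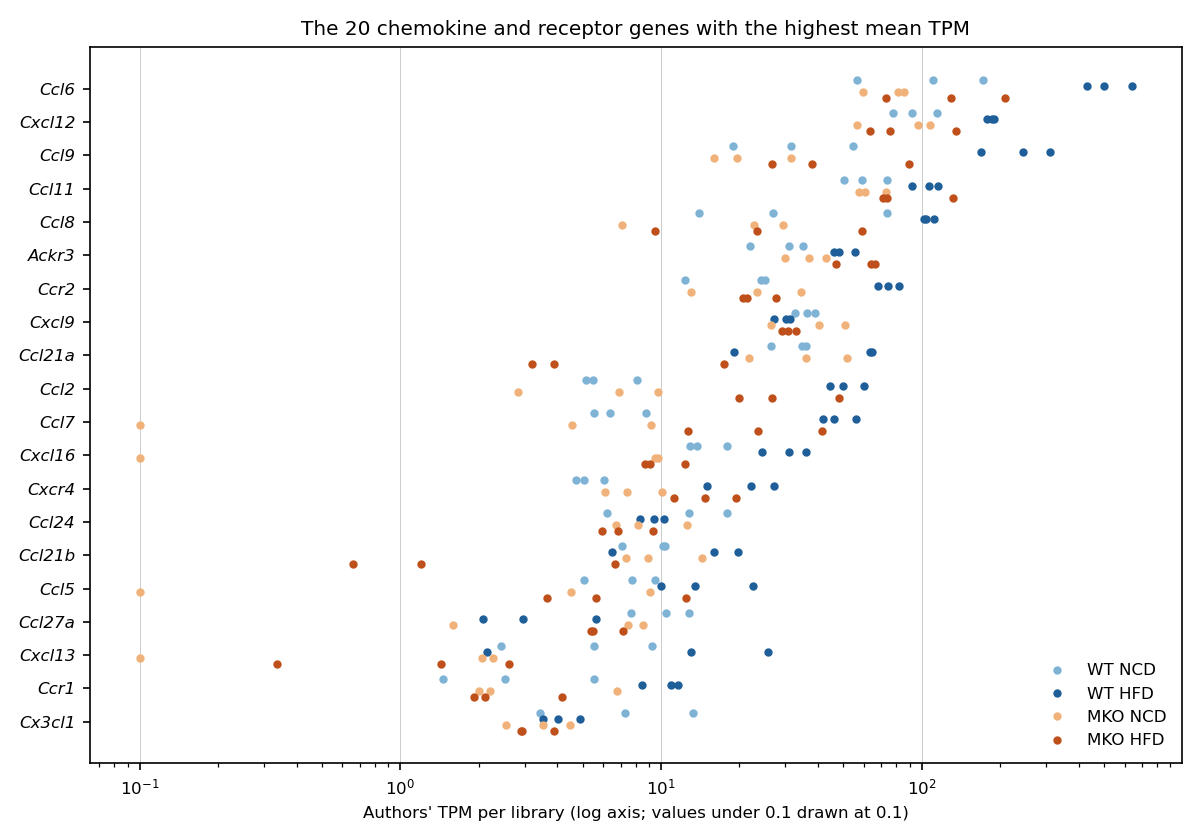
The authors' TPM per library (points, log axis, values under 0.1 drawn at 0.1) of the 20 members with the highest mean, coloured by group. The WT HFD points of Ccl6, Ccl9 and Ccr2 lie to the right of the other groups, while those of Cxcl9 fall among them at 27.1 to 31.2 TPM.

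Summed over the 35 ligands, the libraries held 422, 656 and 482 TPM in WT NCD, 1439, 1687 and 1309 TPM in WT HFD, 484, 329 and 430 TPM in MKO NCD and 465, 399 and 817 TPM in MKO HFD. The 3 WT HFD libraries were above the 9 others. Summed over the 17 receptors, they held 25.1, 44.6 and 38.4 TPM in WT NCD, 109.7, 137 and 118 TPM in WT HFD, 40.1, 49.0 and 26.5 TPM in MKO NCD and 42.0, 36.9 and 58.6 TPM in MKO HFD. Here too the WT HFD libraries were above all others, and the MKO HFD libraries overlapped both NCD groups. Such sums weigh the abundant members most and do not show a shift of the whole class. Mean TPM in WT NCD and WT HFD was 113 and 525 for Ccl6, 35.1 and 242 for Ccl9, and 20.6 and 74.5 for Ccr2.

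The first comparison asks what the high-fat diet did in WT mice. Of the 48 tested members 7 rose and 0 fell at an adjusted p under 0.05, against 9.5% of all 20297 tested genes that rose and 8.28% that fell. The 7 were the ligands Ccl2, Ccl9, Ccl6 and Ccl11, the receptors Cxcr4 and Ccr2 and the atypical receptor Ackr3. The WT HFD libraries were all above the WT NCD libraries for 27 members (22.8% of all tested genes) and all below for 2 (24.2%). The log2 fold change was above 0 for 37 of the 48 members, with a median of 1.13, where 45.0% of all tested genes were above 0 and their median was -0.09. Without MKO NCD replicate 2, 16 members rose (15.1% of genes tested then) and 2 fell (16.3%). In whole tissue, more cells of a type and more RNA per cell cannot be told apart.

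Among the ligands, Ccl2, the main attractant of Ccr2-bearing monocytes, read 1.84, 3.19 and 1.86 CPM in WT NCD, against 19.8, 21.9 and 17.1 CPM in WT HFD. The groups lay far apart. Ccl2 was 8.53-fold higher on HFD (log2 fold change 3.09, SE 0.47, adjusted p = 0.00147). Ccl7, which binds Ccr2 as well, read 1.97, 3.44 and 2.13 CPM on NCD and 16.5, 20.3 and 17.6 CPM on HFD. Its WT groups were as far apart, yet its adjusted p was 0.104 (log2 fold change 2.85, SE 1.11), and 0.000891 without MKO NCD replicate 2, where Ccl7 was at 0. Ccl8, of the same family, ranged from 3.15 to 18.4 CPM on NCD and from 23.6 to 28.0 CPM on HFD (adjusted p = 0.194).

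Ccl6 and Ccl9, ligands of Ccr1 that mice but not humans carry under these names, had the highest mean TPM of the ligands in WT HFD. Ccl6 read 35.7, 121 and 66.1 CPM in WT NCD, against 355, 417 and 295 CPM in WT HFD. The lowest HFD library was above the highest NCD library, and the ratio was 4.79 (log2 fold change 2.26, SE 0.43, adjusted p = 0.00448). Ccl9 read 25.1, 80.4 and 39.5 CPM against 364, 424 and 243 CPM. It was 7.10-fold higher (log2 fold change 2.83, SE 0.50, adjusted p = 0.0031). In both genes WT NCD replicate 2 was the highest of its group, as it was for the summed macrophage markers. RefSeq places the noncoding gene E230016K23Rik over the whole of Ccl6, and the labels do not say whether counting used the strand.

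Ccl11, the eotaxin that attracts eosinophils through Ccr3, read 23.8, 38.6 and 26.4 CPM on NCD and 48.4, 56.2 and 54.7 CPM on HFD. The groups did not overlap, and Ccl11 was 1.79-fold higher (log2 fold change 0.84, SE 0.23, adjusted p = 0.0287). Leaving out WT NCD replicate 1 or 3 or any 1 WT HFD library took its adjusted p to 0.0617 to 0.0950. Cxcl12, made by stromal cells, read 183, 114 and 139 CPM on NCD and 240, 241 and 241 CPM on HFD, with an adjusted p of 0.0791 (log2 fold change 0.73, SE 0.26). Its HFD libraries were nearly equal and all above NCD, and its adjusted p was 0.0227 without MKO NCD replicate 2. The 7 markers of fibroblasts and progenitors summed to 918, 2026 and 1209 CPM in WT NCD and to 2358, 2472 and 2204 CPM in WT HFD, 4 of them rose, and their part in the level of Cxcl12 was not tested. Cxcl16, a scavenger receptor and ligand of Cxcr6, read 9.75, 14.2 and 8.67 CPM against 19.7, 25.6 and 23.5 CPM. Its adjusted p was 0.556 with all libraries and 0.00372 without MKO NCD replicate 2, where it was at 0.

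Several inflammatory ligands were low on NCD. Ccl3, a ligand of Ccr1, read 0.0897, 0.208 and 0 CPM on NCD and 1.39, 3.08 and 3.04 CPM on HFD, the largest log2 fold change of the members at 4.61 (SE 1.53, adjusted p = 0.0614). RefSeq places Ccl3 and Ccl4 over each other in part, so reads could be shared. Cxcl2, a neutrophil attractant, was at 0.0897 to 0.339 CPM on NCD and 1.05 to 2.22 CPM on HFD (adjusted p = 0.125). For Ccl22, a product of dendritic cells and macrophages, the values were 1.00, 2.47 and 0.500 CPM and 5.02, 5.79 and 4.77 CPM, with an adjusted p of 0.293. The groups of these 3 ligands did not overlap, and without MKO NCD replicate 2 their adjusted p was 0.0116, 0.0104 and 0.0280.

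Not every ligand was higher on HFD. The skin and mucosal ligand Ccl27a read 14.2, 8.74 and 10.5 CPM on NCD and 3.67, 2.68 and 5.91 CPM on HFD, with the HFD libraries below (log2 fold change -1.45, SE 0.51, adjusted p = 0.0732). Its adjusted p was 0.00639 without MKO NCD replicate 2. It has a near copy, Ccl27b, and touches Il11ra1, so its counts are uncertain. Cxcl9, an interferon-induced ligand of Cxcr3, read 41.9, 55.3 and 43.8 CPM on NCD and 43.2, 41.0 and 37.5 CPM on HFD, with overlapping groups (adjusted p = 0.533). Cxcl10, its neighbour and also induced by interferon, read 1.46, 1.48 and 1.61 CPM and then 3.35, 4.82 and 3.83 CPM, with an adjusted p of 0.219, or 0.0344 without MKO NCD replicate 2. RefSeq places Art3 over Cxcl10. Cx3cl1, the membrane-bound fractalkine, ranged from 5.29 to 18.4 CPM on NCD and from 5.48 to 6.95 CPM on HFD (adjusted p = 0.188).

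Among the receptors, Cxcr4, the receptor of Cxcl12, read 4.07, 4.19 and 4.57 CPM on NCD and 13.3, 18.2 and 23.5 CPM on HFD. The groups were apart, and Cxcr4 was 4.29-fold higher with the smallest adjusted p of the members (log2 fold change 2.1, SE 0.27, adjusted p = 0.000582). Ccr2, the receptor of Ccl2 and Ccl7, read 20.05, 44.8 and 36.9 CPM against 134, 135 and 117 CPM. It was 3.79-fold higher (log2 fold change 1.92, SE 0.34, adjusted p = 0.00346). Its lowest HFD library was far above its highest NCD library.

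Ccr1, the receptor of Ccl6, Ccl9 and Ccl3, read 1.84, 7.68 and 2.99 CPM on NCD and 15.3, 14.9 and 11.5 CPM on HFD, with groups apart and an adjusted p of 0.0781, or 0.0201 without MKO NCD replicate 2. Ccr3, the eotaxin receptor, was at 0.194, 0.0912 and 0.0968 CPM and then at 1.08, 1.91 and 0.640 CPM (adjusted p = 0.157, or 0.0147 in a fit of the 6 WT libraries). Cx3cr1, the fractalkine receptor of monocytes and macrophages, read 2.75, 1.95 and 1.65 CPM against 5.37, 9.46 and 5.41 CPM, also without overlap (adjusted p = 0.511, or 0.0169 in a fit of the 6 WT libraries). Of the 14 tested receptors, 13 had a log2 fold change above 0 (45.0% of all tested genes) and 10 had HFD libraries all above NCD (22.8%). Xcr1, carried by cross-presenting dendritic cells, ranged from 0.538 to 1.13 CPM and from 1.16 to 1.99 CPM (adjusted p = 0.253). The pair that guides B cells varied within WT HFD: Cxcr5 read 0.162, 4.04 and 1.16 CPM and its ligand Cxcl13 1.24, 13.5 and 7.24 CPM. The 7 B-cell markers summed to 6.07, 31.0 and 29.2 CPM in the same libraries, so the lowest library was the same in all 3 readouts, and the part of B cells in these values was not tested.

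Among the atypical receptors, Ackr3, which removes Cxcl12, read 19.9, 35.0 and 26.7 CPM on NCD and 48.8, 51.0 and 45.5 CPM on HFD. The groups were apart, and Ackr3 was 1.78-fold higher (log2 fold change 0.83, SE 0.21, adjusted p = 0.0184). That call was lost without WT NCD replicate 1 or 3 or WT HFD replicate 1 or 2, at adjusted p from 0.0549 to 0.0660. Ackr1, which displays chemokines on venules, ranged from 0.0598 to 0.677 CPM and from 0.937 to 5.07 CPM (adjusted p = 0.252), and RefSeq places Cadm3 over it. Ackr4, a scavenger of Ccl19, Ccl21 and Ccl25, spread from 1.23 to 15.7 CPM within WT NCD and overlapped HFD at 1.62 to 3.19 CPM.

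The 9 macrophage markers (Adgre1, Cd68, Csf1r and others) moved with these members. They summed to 402, 1007 and 591 CPM in WT NCD and to 3026, 4104 and 2712 CPM in WT HFD, and 8 of the 9 rose. None of them was at 0 in these libraries. The part of macrophage number in the rise of the chemokine genes was not tested.

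**Figure D2:**
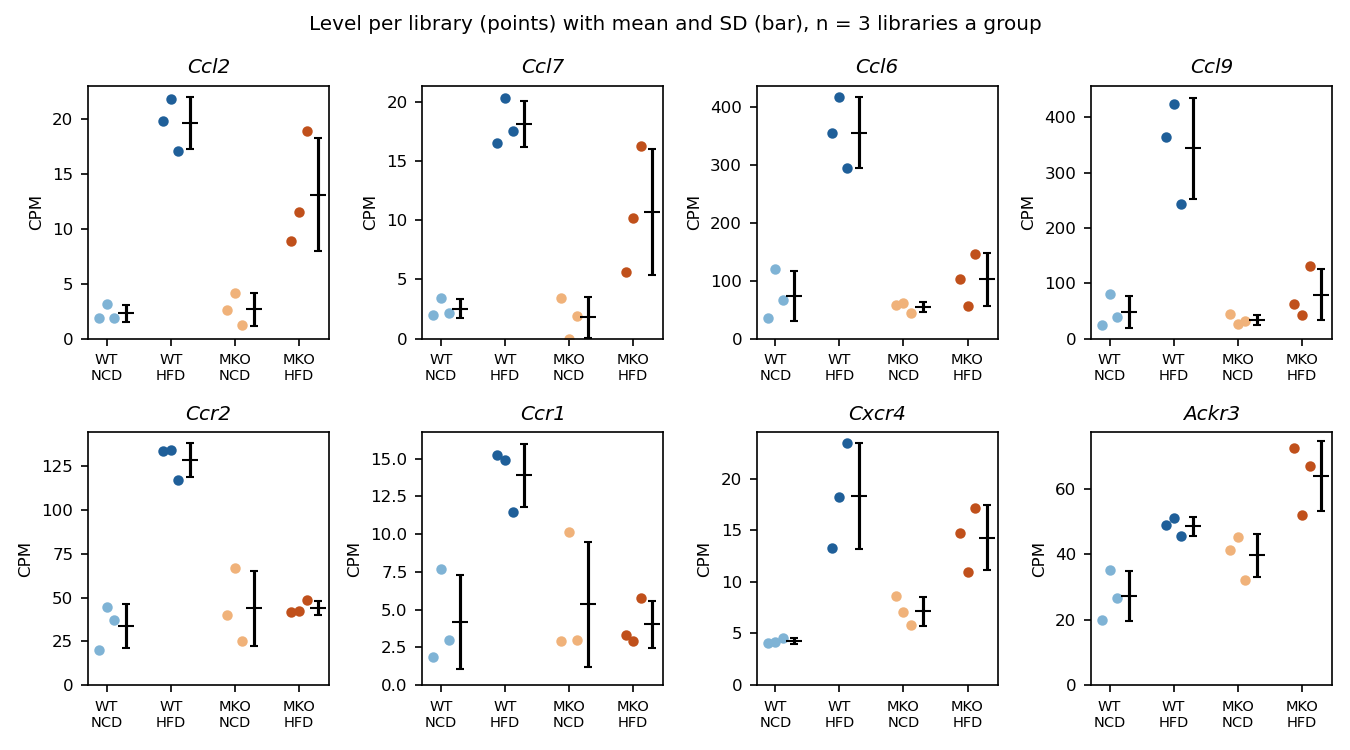
Level in CPM (y axes, each from 0) of 4 ligands, 3 receptors and Ackr3 in each library, with the mean and SD of 3 libraries a group as bars. For Ccl6, Ccl9 and Ccr2 the WT HFD group stands alone, whereas for Ccl2, Ccl7, Cxcr4 and Ackr3 the MKO HFD libraries lie above MKO NCD too.

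In MKO mice 1 of the 48 tested members, Ccl2, rose with HFD and 0 fell, where 1.04% of all tested genes rose and 0.966% fell. The HFD libraries were all above the NCD libraries for 8 members (15.1% of all tested genes) and all below for 2 (9.17%). The median log2 fold change was 0.21 over the members and 0.06 over all tested genes, and 32 of the 48 members were above 0 against 54.4% of all tested genes. Without MKO NCD replicate 2 the counts were again 1 and 0, where 197 of the 21595 genes tested then rose and 160 fell.

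Ccl2 read 2.61, 4.16 and 1.21 CPM in MKO NCD, against 8.89, 11.6 and 18.9 CPM in MKO HFD. The groups did not overlap, and Ccl2 was 4.93-fold higher (log2 fold change 2.30, SE 0.45, adjusted p = 0.0315). That call was lost in 8 of the 12 fits that leave out a library, namely without MKO NCD replicate 1 or 3 and without any 1 HFD library of either genotype, at adjusted p from 0.0513 to 0.116. Ccl7 read 3.43, 0 and 1.91 CPM and then 5.64, 10.2 and 16.3 CPM, with groups apart and an adjusted p of 0.265. Cxcl1, a neutrophil attractant, read 0.365, 0 and 0.263 CPM and then 1.70, 1.80 and 1.20 CPM (adjusted p = 0.233). In all 3 of these ligands the MKO HFD libraries were above MKO NCD. DESeq2 called Cxcl1 higher in MKO (log2 fold change 2.90, adjusted p = 0.0276). In WT, Cxcl1 read 0.389, 1.12 and 0.694 CPM on NCD and 3.55, 3.18 and 1.28 CPM on HFD, without overlap. Its adjusted p in WT was 0.278 by edgeR's test, and 0.0201 without MKO NCD replicate 2.

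Cxcr4 read 8.59, 7.08 and 5.82 CPM in MKO NCD, against 14.8, 10.98 and 17.1 CPM in MKO HFD, without overlap (log2 fold change 1.00, SE 0.26, adjusted p = 0.0821). DESeq2 called Cxcr4 higher (adjusted p = 0.00799). Ackr3 read 41.2, 45.3 and 32.2 CPM and then 72.5, 51.9 and 66.8 CPM, also apart (log2 fold change 0.69, SE 0.21, adjusted p = 0.126). Both DESeq2 and limma-voom called Ackr3 higher (adjusted p = 0.0329 and 0.0355). Ccr2 read 39.8, 67.1 and 25.0 CPM in MKO NCD, against 41.5, 42.2 and 48.9 CPM in MKO HFD. Its groups overlapped, and the log2 fold change was 0.01 (SE 0.33). Ccl6 was at 57.5, 61.4 and 44.8 CPM and then 103, 56.4 and 146 CPM, with overlap and an adjusted p of 0.296. Ccl9 was at 44.2, 25.4 and 30.9 CPM and then 63.2, 43.1 and 131 CPM, with overlap and an adjusted p of 0.222. Of the 9 macrophage markers 0 passed this comparison, and they summed to 626, 735 and 556 CPM and then 687, 481 and 1113 CPM.

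Ccl21a, the lymphatic ligand of Ccr7, was 1 of the 2 members with HFD libraries all below NCD in MKO. It read 21.1, 10.02 and 16.4 CPM on NCD and 8.41, 1.82 and 1.38 CPM on HFD, at a lower level in each (log2 fold change -2.03, SE 0.68, adjusted p = 0.172). DESeq2 and limma-voom called Ccl21a lower (adjusted p = 0.0294 and 0.0467). The other was its near copy Ccl21b, which read 5.58, 3.23 and 3.91 CPM and then 3.09, 0.557 and 0.282 CPM, and counts may be split between the copies. In WT HFD, Ccl21a read 27.7, 7.46 and 26.3 CPM, so replicate 2 was far below the others there. Between genotypes on HFD the Ccl21a groups overlapped. DESeq2 and limma-voom called it lower in MKO there (log2 fold change -2.42 and -2.95, adjusted p = 0.00443 and 0.0137). The 4 markers of lymphatic endothelium summed to 41.4, 68.9 and 37.5 CPM in MKO NCD and to 67.7, 38.1 and 55.4 CPM in MKO HFD, and 0 of them passed.

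**Figure D3:**
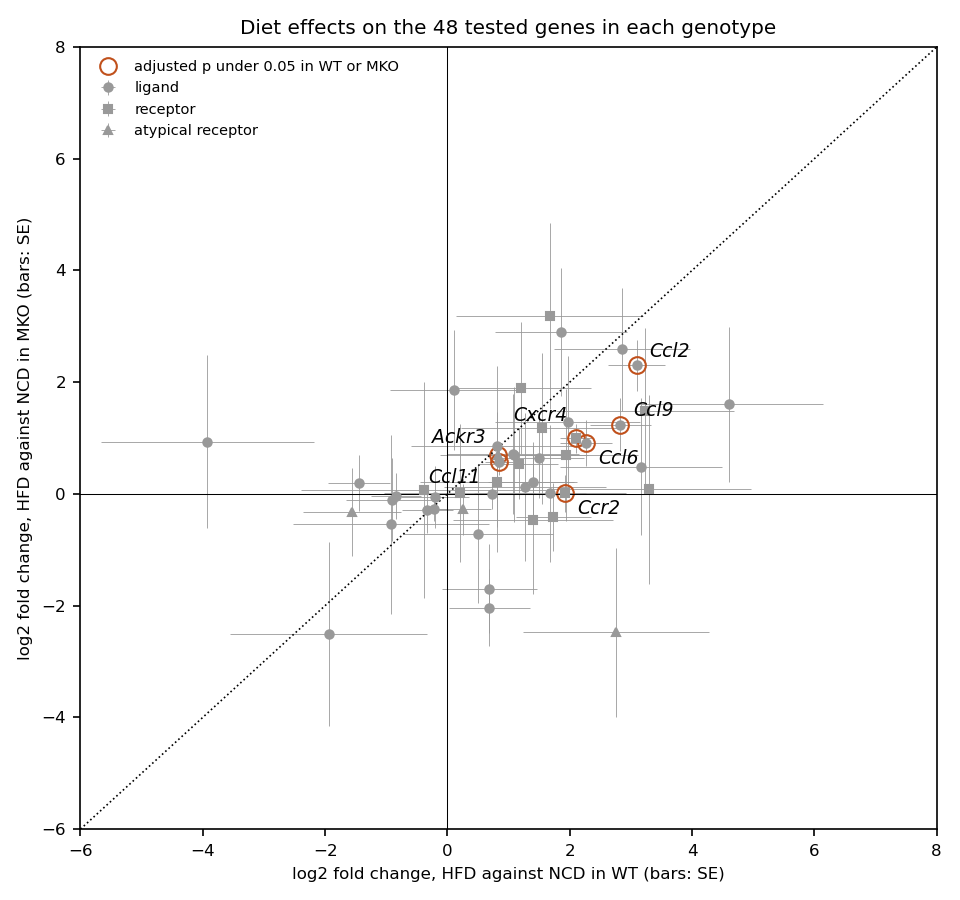
Log2 fold change of HFD against NCD in WT (x axis) and in MKO (y axis) for the 48 tested members, with SE as bars, the shape giving the class and red rings the members past the threshold in either genotype. Of the 7 members called in WT by edgeR, Ccl2 alone is called by edgeR in MKO as well, and Ccr2 lies at 1.92 in WT and 0.01 in MKO.

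On normal chow, 0 members differed between MKO and WT in either direction by edgeR's quasi-likelihood test, where 2.22% of all tested genes were higher and 2.13% lower. At an unadjusted p under 0.05 there were 4 of 48 members, against 19.7% of all tested genes. DESeq2 and limma-voom called 0 members, where they called 10.9% and 7.13% of all genes. The MKO libraries were all above WT for 1 member (9.63% of all tested genes) and all below for 6 (15.6%). The median log2 fold change was -0.42 over the members and -0.14 over all tested genes. Without MKO NCD replicate 2 the count of lower members was 1 (2.81% of genes), which was Cxcl14, a ligand that skin and connective tissue make at rest.

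Cxcr4 had the smallest p, with 4.07, 4.19 and 4.57 CPM in WT, against 8.59, 7.08 and 5.82 CPM in MKO. The groups were apart, and the adjusted p was 0.132 (log2 fold change 0.74, SE 0.26). Cxcl14 read 6.04, 4.23 and 4.92 CPM in WT, against 1.90, 0 and 1.31 CPM in MKO, without overlap. Its log2 fold change was -2.24 (SE 1.09, adjusted p = 0.289), and -1.65 without MKO NCD replicate 2 (adjusted p = 0.0120). Cx3cr1 read 2.75, 1.95 and 1.65 CPM in WT, against 0.328, 0 and 0 CPM in MKO, from 436 and 18 summed counts. MKO NCD replicate 3, which was at 0 as well, is not the library with the many zeros. The log2 fold change was -4.26 (SE 1.74, adjusted p = 0.200). Ackr1 turned on 1 library, with 0.310, 9.84 and 0.140 CPM in MKO: its log2 fold change was 3.16 with replicate 2 and -0.75 without it. Of the macrophage markers 0 of 9 passed in this comparison. The markers of monocytes and neutrophils summed to 260, 180 and 54.1 CPM in WT, against 12.6, 13.2 and 14.6 CPM in MKO, and 2 of the 7 tested were lower. Of the epididymis markers 3 of 6 tested were lower, and 2 of 7 adipocyte markers were higher. The part of these cells in the values above was not tested.

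On the high-fat diet, 3 members were lower in MKO than in WT and 0 were higher, where 2.24% of all tested genes were lower and 1.34% higher. The 3 were Ccr2, Ccl9 and Ccl6. The MKO libraries were all below WT for 20 members (17.3% of all tested genes) and all above for 5 (15.8%). The log2 fold change was below 0 for 40 of the 48 members, with a median of -0.95, where 49.8% of all tested genes were below 0 and their median was 0. Without MKO NCD replicate 2, 5 members were lower (4.74% of genes), the 3 named and Ccr1 and Cxcl16. Each of the 3 calls was lost without any 1 WT HFD library, without MKO HFD replicate 1 or 2 and without MKO NCD replicate 1, at adjusted p up to 0.179. The Ccr2 call was also lost without MKO HFD replicate 3, and those of Ccl9 and Ccl6 without WT NCD replicate 3 or MKO NCD replicate 3. In the 12 fits that leave out a library the log2 fold change of Ccr2 lay between -1.62 and -1.49.

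Ccr2 read 134, 135 and 117 CPM in WT HFD, against 41.5, 42.2 and 48.9 CPM in MKO HFD. The groups lay far apart with little spread, and Ccr2 was 2.91-fold lower than in WT (log2 fold change -1.54, SE 0.34, adjusted p = 0.0353). Ccl9 read 364, 424 and 243 CPM in WT, against 63.2, 43.1 and 131 CPM in MKO. It was 4.34-fold lower without overlap (log2 fold change -2.12, SE 0.48, adjusted p = 0.0385). Ccl6 read 355, 417 and 295 CPM in WT, against 103, 56.4 and 146 CPM in MKO. The ratio was 3.48-fold lower, again without overlap (log2 fold change -1.80, SE 0.42, adjusted p = 0.0423). MKO HFD replicate 3 was the highest MKO library for all 3 genes, and also for the macrophage markers.

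Other members missed the threshold with all libraries by edgeR's quasi-likelihood test. Ccr1 read 15.3, 14.9 and 11.5 CPM in WT, against 3.31, 2.94 and 5.79 CPM in MKO, a log2 fold change of -1.79 (SE 0.62, adjusted p = 0.168). The groups did not overlap, and without MKO NCD replicate 2 the adjusted p was 0.0499. Cxcl16 read 19.7, 25.6 and 23.5 CPM in WT, against 7.76, 7.56 and 9.97 CPM in MKO, with an adjusted p of 0.645, or 0.00922 without that library. RefSeq places Zmynd15 next to and partly over Cxcl16. Ccl3 read 1.39, 3.08 and 3.04 CPM in WT, against 0.121, 0.115 and 0.582 CPM in MKO (adjusted p = 0.325). Cxcl12 read 240, 241 and 241 CPM in WT, against 121, 162 and 199 CPM in MKO (log2 fold change -0.58). Ccl8 read 28.0, 23.6 and 25.4 CPM, against 6.59, 2.63 and 14.8 CPM (-1.68). For Ccl22 the values were 5.02, 5.79 and 4.77 CPM and 0.606, 1.46 and 1.89 CPM (-1.98). The groups of Cxcl12, Ccl8 and Ccl22 did not overlap, and limma-voom called each lower (adjusted p = 0.0135, 0.00763 and 0.00665).

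Ccl2 and Ccl7, ligands of Ccr2, did not pass between genotypes by edgeR's quasi-likelihood test. Ccl2 read 19.8, 21.9 and 17.1 CPM in WT HFD, against 8.89, 11.6 and 18.9 CPM in MKO HFD, with overlapping groups (log2 fold change -0.58, SE 0.43, adjusted p = 0.638). By limma-voom Ccl2 was lower (log2 fold change -0.70, adjusted p = 0.0313). Ccl7 read 16.5, 20.3 and 17.6 CPM and 5.64, 10.2 and 16.3 CPM, with MKO just below WT (log2 fold change -0.76, SE 1.04, adjusted p = 0.881). Cxcr4 overlapped at 13.3, 18.2 and 23.5 CPM in WT, against 14.8, 10.98 and 17.1 CPM in MKO (adjusted p = 0.615). Ackr3 read 48.8, 51.0 and 45.5 CPM in WT, against 72.5, 51.9 and 66.8 CPM in MKO, where MKO was above by a narrow margin (log2 fold change 0.40, SE 0.21, adjusted p = 0.420). The 5 members with MKO above WT in every library were Ackr3, Ccl27a, Cxcl9, Ccl25 and Ccl17, with log2 fold changes from 0.23 to 2.83 and adjusted p from 0.354 to 0.830. Of these, limma-voom called Ccl27a higher (log2 fold change 1.09, adjusted p = 0.0228).

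The macrophage markers moved with this comparison: 7 of 9 were lower in MKO HFD, at sums of 687, 481 and 1113 CPM against 3026, 4104 and 2712 CPM in WT HFD, and none was at 0. Their median log2 fold change was -2.16, beside -1.54 for Ccr2, -2.12 for Ccl9 and -1.80 for Ccl6. Of the fibroblast and progenitor markers 2 of 7 were lower, at sums of 1382.5, 990.4 and 1282 CPM in MKO HFD. B-cell markers summed to 6.22, 3.69 and 3.79 CPM in MKO HFD, and 0 of 7 passed. Cxcl13 there read 1.70, 0.211 and 0.829 CPM and Cxcr5 0.202, 0.115 and 0.124 CPM. The part of macrophage, fibroblast or B-cell number in these values was not tested.

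**Figure D4:**
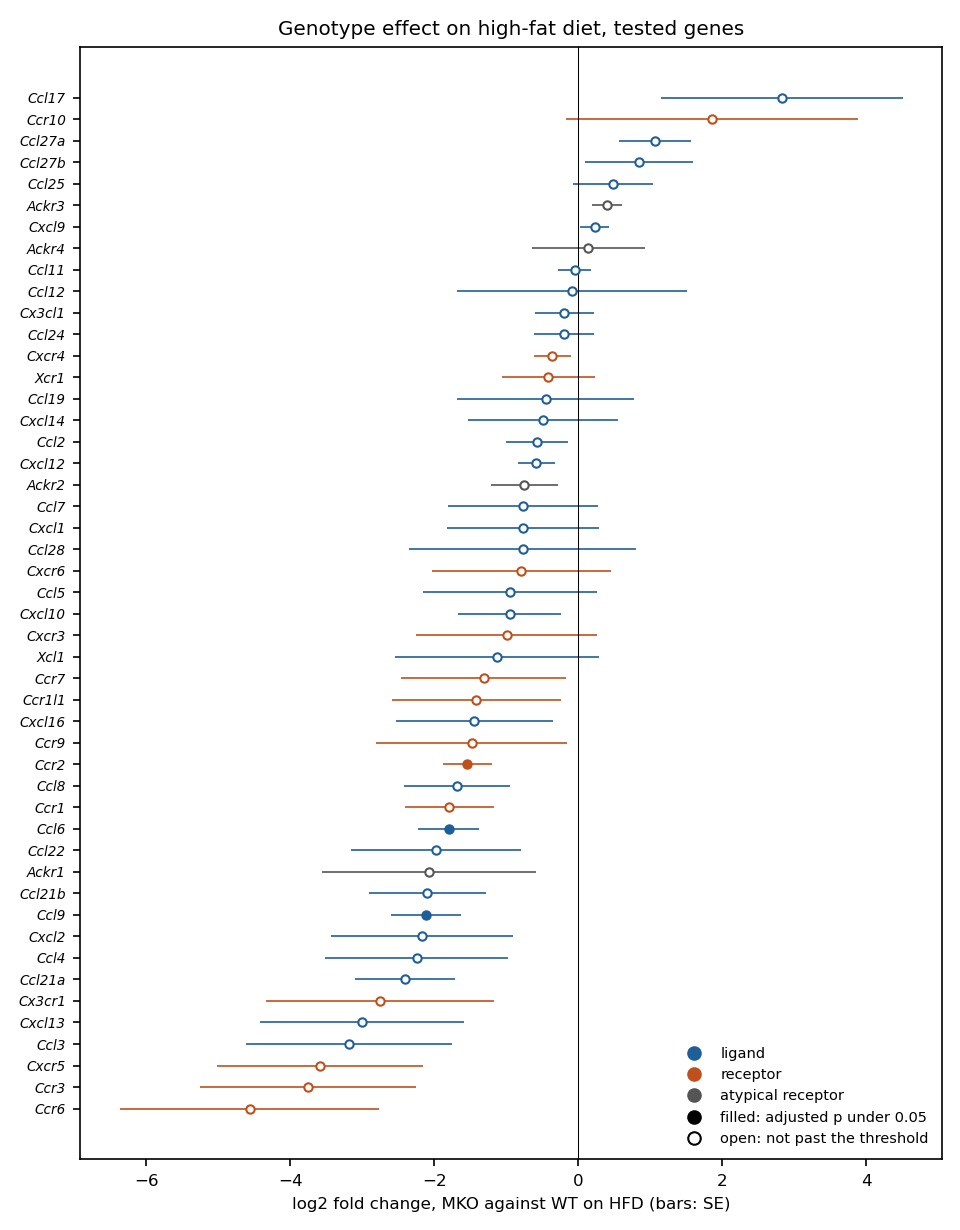
Log2 fold change of MKO against WT on HFD (x axis) with SE bars for the 48 tested members, ordered from highest to lowest and coloured by class. The 3 filled points past the threshold are Ccr2, Ccl6 and Ccl9, and 40 of the 48 lie below 0.

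The difference between the diet effects of the genotypes was tested as an interaction. By edgeR's quasi-likelihood test 0 members passed in either direction, where 0.118% of all tested genes passed as higher and 0.143% as lower. At an unadjusted p under 0.05 there were 8 of 48 members, against 13.1% of all tested genes. Limma-voom called 2 members as lower (2.4% of all genes), Ccr2 at a log2 difference of -1.49 (adjusted p = 0.0296) and Cxcl12 (adjusted p = 0.0451). DESeq2 called 1 (3.31% of all genes), which was Ccr2 at -1.88 (adjusted p = 0.00465). In the edgeR fit the smallest p was that of Ccr2, at a log2 difference of -1.91 (SE 0.48, adjusted p = 0.0977). Without MKO NCD replicate 2 the Ccr2 difference was -1.47 (adjusted p = 0.0983). Cxcr4 followed at -1.10 (SE 0.36, adjusted p = 0.201) and Ccl21a at -2.72 (SE 0.95, adjusted p = 0.229). Of the 7 members called in WT, Ccr2 thus differed between genotypes by both other tools and not by edgeR, and the difference passed for none of the other 6 by any of the 3 tools.

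**Figure D5:**
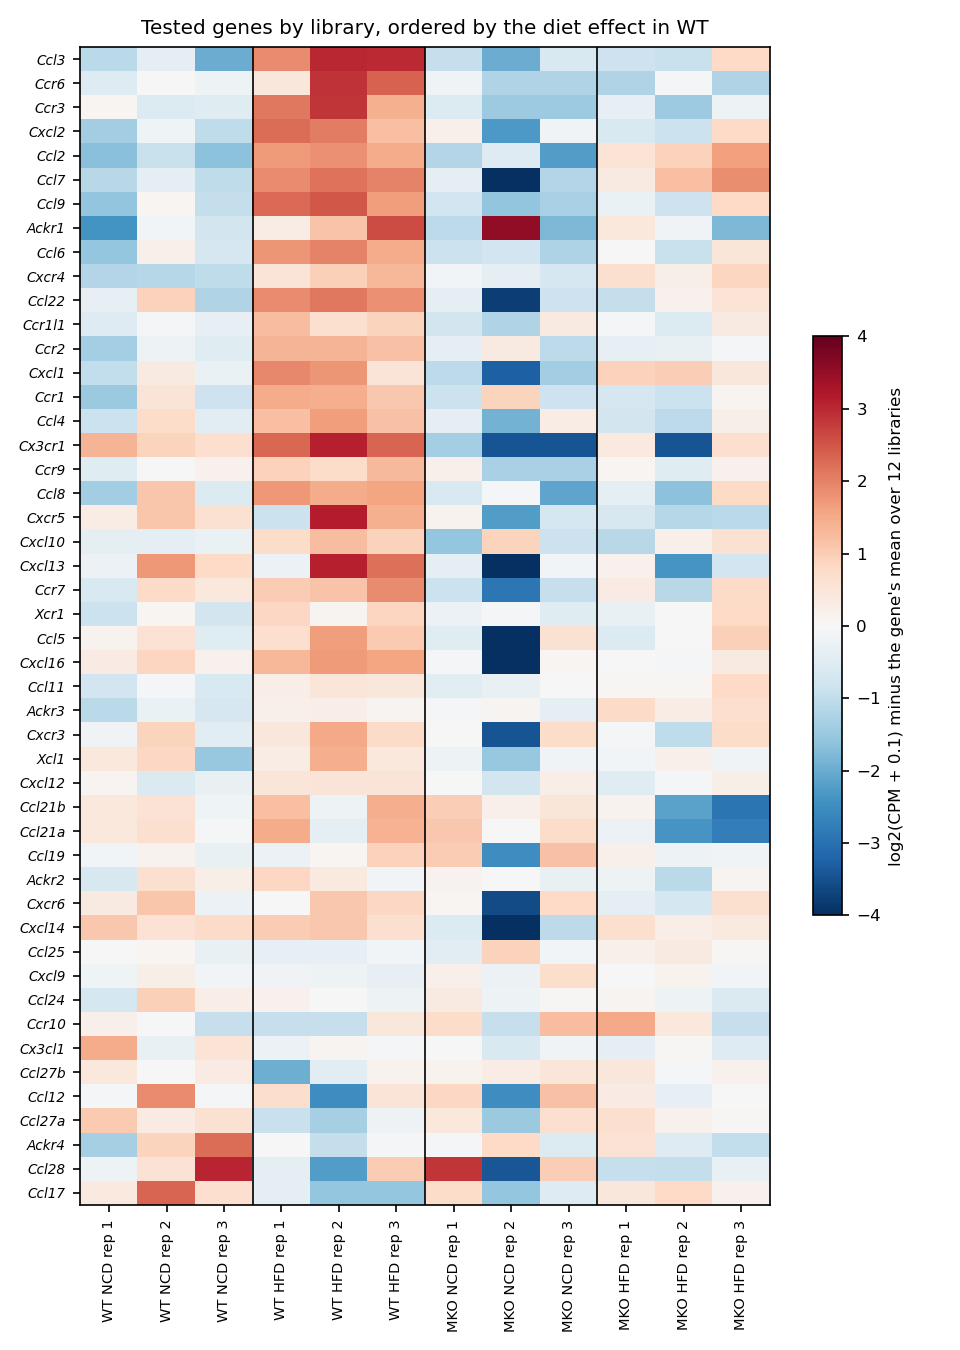
The 48 tested members (rows, ordered by the diet effect in WT) in each of the 12 libraries (columns), as log2(CPM + 0.1) minus the member's mean over libraries, with colours ending at -4 and 4. The 3 WT HFD columns are mostly red in the upper rows, which the order of the rows favours. MKO NCD replicate 2 shows single dark blue cells such as Ccl7, Cxcl13, Ccl5, Cxcl16 and Cxcl14.

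Many members sit in clusters of neighbouring genes that arose by duplication. With a gap of at most 500000 bases, 36 of the 56 members fell into 9 clusters in RefSeq on GRCm38.p6. The receptor cluster on chromosome 9 (123767211 to 124109140) holds Ccr9, Cxcr6, Xcr1, Ccr1, Ccr1l1, Ccr3 and Ccr2. All 7 were above 0 with HFD in WT, of which 1 passed, and all 7 were below 0 in MKO against WT on HFD, of which 1 passed. The medians were 1.73 and -1.48. The cluster of Ccl5, Ccl9, Ccl6, Ccl3 and Ccl4 on chromosome 11 (83525778 to 83664683) had medians of 2.26 and -2.12 in the same comparisons, with 5 of 5 above 0 and 2 called, then 5 of 5 below 0 and 2 called. The nearby cluster of Ccl2, Ccl7, Ccl11, Ccl12, Ccl8 and Ccl1 (82035577 to 82179812) had medians of 1.5 and -0.58 over its 5 tested genes, of which 2 rose with HFD in WT and 0 differed by genotype on HFD. These 3 clusters were chosen after their values were seen. In the cluster of Ccl27a, Ccl21b, Ccl27b, Ccl19 and Ccl21a 3 of 5 were above 0 with HFD in WT and 3 of 5 below 0 by genotype on HFD, and in that of Ccl22, Cx3cl1 and Ccl17 1 of 3 was above 0 and 2 of 3 were below 0, with 0 called. Of all tested genes 45.0% and 49.8% had these directions, and 9.5% and 2.24% were called in them. Neighbouring genes of a family are not independent, and no difference between clusters was tested.

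Ligands and receptors are set side by side for some of the known pairs, on the log2 fold change scale. For Ccl2 and Ccr2 the values were 3.09 and 1.92 with diet in WT, 2.30 and 0.01 with diet in MKO and -0.58 and -1.54 between genotypes on HFD. For Cxcl12 and Cxcr4 they were 0.73 and 2.1, then -0.004 and 1.00, then -0.58 and -0.36. The pair Ccl9 and Ccr1 gave 2.83 and 1.73, then 1.24 and -0.41, then -2.12 and -1.79. For Cxcl13 and Cxcr5 they were 1.26 and 1.40, then 0.12 and -0.47, then -3.01 and -3.59, from low counts that varied between libraries. Other pairs did not share a direction. Cx3cl1 and Cx3cr1 gave -0.85 and 1.67, then -0.04 and 3.18, then -0.19 and -2.75. For Ccl25 and Ccr9 the values were -0.20 and 1.55, then -0.05 and 1.17, then 0.49 and -1.48. The remaining pairs are not listed. The comparisons share libraries, so these values are not independent of each other.

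Genes that carry the signal below the receptors were read as a list of 42, all tested. In WT 20 rose with HFD (9.5% of all tested genes) and 0 fell (8.28%), with the smallest p for the kinase Lyn (log2 fold change 1.5, adjusted p = 0.000496), the G-protein subunit Gng2 (1.57, adjusted p = 0.000545), the receptor kinase Grk5 (1.00, adjusted p = 0.000779) and the arrestin Arrb2 (1.16, adjusted p = 0.000954). Lyn read 30.3, 30.1 and 29.5 CPM in WT NCD, against 79.9, 95.3 and 78.2 CPM in WT HFD. In MKO 0 of the 42 passed with diet, Grk5 having the smallest p at a log2 fold change of 0.51 (adjusted p = 0.0847). On HFD 8 were lower in MKO (2.24% of all tested genes) and 0 higher (1.34%), led by the leukocyte genes Pik3cg (log2 fold change -1.75, adjusted p = 0.0114), Prex1 (-1.44, adjusted p = 0.0129), Dock2 (-2.21, adjusted p = 0.0230) and Rac2 (-1.68, adjusted p = 0.0263). Pik3cg, the phosphoinositide kinase driven by G-protein subunits, read 25.4, 31.4 and 18.4 CPM in WT HFD, against 7.11, 6.20 and 9.0 CPM in MKO HFD. Without MKO NCD replicate 2 the counts were 26 higher and 1 lower with diet in WT (15.1% and 16.3% of genes), and 13 lower in MKO on HFD (4.74%). On NCD Grk6 alone passed, as higher in MKO (log2 fold change 0.39, adjusted p = 0.0422), and its adjusted p was 0.0517 without MKO NCD replicate 2. In the interaction 0 passed, and without that library 2 were lower (0.472% of genes), Pik3cg at a log2 difference of -1.86 (adjusted p = 0.0476) and Pik3cd, another such kinase, at -1.39 (adjusted p = 0.0486). Beside these genes, 8 of 9 macrophage markers and 4 of 7 of fibroblasts and progenitors rose with HFD in WT. For endothelium, for adipocytes, and for monocytes and neutrophils 1 of 7 tested markers rose. Of these lists, 2 adipocyte markers and 1 of monocytes and neutrophils fell. For T and NK cells 0 of 9 passed, for B cells 0 of 7 and for dendritic cells 0 of 6. With MKO NCD replicate 2 left out, 2 B-cell, 2 dendritic-cell and 4 endothelial markers rose, and 1 dendritic-cell marker fell. Of the monocyte and neutrophil markers 4 then rose and 1 fell. For fibroblasts and progenitors 5 rose in that fit, and for lymphatic endothelium 2. The part of cell numbers in this list was not tested.

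A list of 13 related genes covered proteins that bind, cut or present chemokines and family members under other names. In WT 5 rose with HFD (9.5% of all tested genes) and 1 fell (8.28%), with the smallest p for the shedding protease Adam17 (log2 fold change 1.17, adjusted p = 0.00157), the syndecan Sdc1 (1.51, adjusted p = 0.00157), the adipokine chemerin, coded by Rarres2 (1.02, adjusted p = 0.00197), and the protease Adam10 (0.64, adjusted p = 0.00427). Sdc1, a heparan sulfate proteoglycan that binds chemokines, read 58.8, 60.4 and 41.1 CPM in WT HFD, against 13.3, 11.7 and 21.2 CPM in MKO HFD. It was lower than in WT (log2 fold change -1.79, SE 0.23, adjusted p = 0.00945). The chemerin receptor Cmklr1 went the other way, at 65.5, 77.5 and 95.7 CPM in WT HFD, against 147, 186 and 173 CPM in MKO HFD (log2 fold change 1.08, SE 0.20, adjusted p = 0.0184). On NCD it was higher in MKO as well, at 79.2, 119 and 76.2 CPM against 147, 185 and 171 CPM (log2 fold change 0.87, adjusted p = 0.0341). That call was lost without MKO NCD replicate 2 (log2 fold change 0.80, adjusted p = 0.0686), and Dpp4, a peptidase that trims chemokines, was then lower (log2 fold change -1.75, adjusted p = 0.0155). In MKO 0 of the 13 passed with diet.

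The authors' deposited table gives its own genotype comparisons. On NCD it calls 0 of the 47 members that have an adjusted p there, against 7.74% of all such genes (2.31% higher and 5.43% lower). On HFD the authors' deposited table calls 16 of 49, against 17.4% of all its genes, with 15 lower in MKO (10.6% of all) and Ccl27a higher (6.78% of all). The signed fold change in the authors' deposited table, negative where MKO is lower, is -2.91 for Ccr2 (adjusted p = 7.44e-26) and -2.72 for Cxcl16 (adjusted p = 2.93e-11). For Ccl6 and Ccl9 the authors' deposited table has -3.49 (adjusted p = 7.24e-09) and -4.35 (adjusted p = 0.00105). The number called, 16 in the authors' deposited table, compares with 3 in the fit of all 12 libraries here.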

How the data were processed

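RNA of gonadal white adipose tissue was sequenced in 12 libraries, 3 in each of 4 groups taken from the genotype and diet in the labels. Per the labels' protocols a stranded mRNA kit was used. The submitters' processing notes name HISAT2 2.1.0 and StringTie 1.3.4d, next to bcl2fastq 2.20.0, Trimmomatic and DESeq2, and the genome mm10, with no role for each. The raw read counts per gene deposited by the authors were tested, and their TPM gave levels between genes. The authors' FPKM and normalized log2 values were not used. The authors' deposited signed fold changes, a score per gene, and the authors' deposited adjusted p-values are quoted only where that table is named.

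In R 4.3.3, edgeR 4.0.16 fitted all 12 libraries by group with TMM size factors and the robust quasi-likelihood F test, after filterByExpr by group. P-values were adjusted by Benjamini-Hochberg over all 20297 tested genes and called under 0.05. CPM uses TMM library sizes, SE is of the log2 fold change, and group values are mean and SD. The procedure was tested on simulated data. The replicates are given as biological with no more detail, so p-values measure the spread between these samples. Alternatives were RLE size factors, other count filters, DESeq2 1.42.0, limma-voom with sample weights (limma 3.58.1), the 6 libraries compared, the replicate number as a block, and each library left out.

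Named members were those called in any comparison, the 10 with the highest mean TPM, known partners of called members, a few textbook genes, and members whose groups were apart in any diet or genotype comparison at a mean of at least 1 CPM. Others named for a count of 5 or fewer, or singled out, were chosen after their values were seen, among them Ackr4, Ccl3, Cxcl2, Cxcr5 and Ccl17. From the 2 further gene lists the 4 with the smallest p per comparison were named. The members and lists were chosen with earlier results of these data known. A further gene that matches the rule is not reported here. Positions and promoter windows are from RefSeq on GRCm38.p6 (mm10), matched by gene identifier or symbol. Ccl2, Ccl4, Ccl5, Ccl7, Ccl11, Ccl24, Ccl26, Ccr7, Ccr10, Cxcl5, Cxcl16, Cxcl17 and Cxcr5 have no window in the table used.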

Additional observations from a re-analysis of the deposited data

How the results depend on the processing

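Of the named-member results under the alternatives, 2524 kept their direction and side of the threshold, 59 passed it newly and 47 lost it. In 79 values of 38 results the sign changed with no call under either setting, such as Ackr1 with diet in MKO (-2.48, and 1.44 without MKO NCD replicate 2), and 0 called values changed sign. Counts of members higher with HFD in WT were 7 in the fit of all 12 libraries, 17 with only the 6 libraries compared, 15 by limma-voom and 12 by DESeq2, and lower ones were 0, 1, 2 and 1. The shares of all genes were 9.5%, 13.5%, 14.7% and 11.8% for higher and 8.28%, 13.8%, 16.1% and 13.9% for lower. In MKO, members higher with HFD were 1, then 0, 2 and 4 (1.04%, 0.109%, 3.5% and 4.04% of all genes), and limma-voom and DESeq2 each gave 1 lower, Ccl21a (3.3% and 4.49% of all genes). On HFD, members lower in MKO were 3, with 8 in the 6 libraries, 17 by limma-voom, 5 by DESeq2 and 1 with no count filter (2.24%, 8.09%, 10.8%, 5.22% and 1.18% of all genes). Limma-voom gave 1 higher there, Ccl27a (7.34% of all genes). The interaction gave 0, with 2 lower by limma-voom and 1 by DESeq2. The cause of these differences between settings was not tested. Leaving out each library in turn gave 5 to 16 higher and 0 to 2 lower in WT with diet, 0 to 1 and 0 to 1 in MKO with diet, 0 to 0 and 0 to 1 by genotype on NCD, 0 to 0 and 0 to 5 on HFD, and 0 to 0 in both directions of the interaction. Of 20885 to 21595 tested genes, these fits called 1173 to 3266 higher and 702 to 3523 lower in WT with diet. The ranges were 38 to 253 and 37 to 227 in MKO with diet, and 156 to 422 and 163 to 606 by genotype on NCD. They were 5 to 557 and 2 to 1023 by genotype on HFD, and 1 to 89 and 0 to 240 in the interaction. The highest counts, 16 and 5, came without MKO NCD replicate 2. The count of 5 in WT came without WT NCD replicate 1, WT NCD replicate 3, WT HFD replicate 1 or WT HFD replicate 2.

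The labels do not pair the replicate numbers, and only 3 of 18 correlations between same-numbered libraries were above 0.1 (range -0.14 to 0.16). With the number as a replicate block 8 members were higher with HFD in WT, 0 in MKO (adjusted p of Ccl2 0.0548), and 0 were lower in MKO on HFD. Of all 20297 tested genes 1621, 75 and 159 were called there in these directions. RLE size factors changed no member count and moved the median of all genes most on NCD, from -0.14 to -0.20. The SE exceeded 1 in each of the 5 comparisons for 26 of the 48 tested members, and the cause was not tested. For the 8 members with at most 10 counts in any library no difference could be read at this depth.

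Over all alternatives, the adjusted p with diet in WT ranged from 0.00298 to 0.0660 for Ackr3, 0.00764 to 0.0950 for Ccl11, 0.000891 to 0.229 for Ccl7, 0.00271 to 0.151 for Ccl3, 0.0108 to 0.224 for Cxcl12, 0.00372 to 0.723 for Cxcl16, 0.00728 to 0.200 for Ccr1, 0.0238 to 0.522 for Ccl22, 0.0104 to 0.288 for Cxcl2, 0.0173 to 0.419 for Cxcl10, 0.00639 to 0.226 for Ccl27a, 0.0169 to 0.724 for Cx3cr1 and 0.0147 to 0.337 for Ccr3. With diet in MKO it ranged from 3.41e-05 to 0.143 for Ccl2, 0.00799 to 0.295 for Cxcr4, 0.0329 to 0.338 for Ackr3 and 0.0294 to 0.415 for Ccl21a. That of Cxcl14 by genotype on NCD ranged from 0.0120 to 0.682, where Grk6 ranged from 0.000811 to 0.227, Cmklr1 from 0.00135 to 0.145 and Dpp4 from 0.00872 to 0.277. By genotype on HFD it ranged from 0.000193 to 0.167 for Ccr2, 9.15e-05 to 0.179 for Ccl9, 0.000195 to 0.179 for Ccl6, 0.00125 to 0.520 for Ccr1 0.00846 to 0.933 for Cxcl16 and 0.0313 to 0.974 for Ccl2, and in the interaction from 0.00465 to 0.236 for Ccr2, 0.0451 to 0.738 for Cxcl12, 0.000111 to 0.160 for Pik3cg and 0.00359 to 0.222 for Pik3cd.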
